A study of Mus musculus with 9 samples.

Results

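Peroxisome proliferator-activated receptors (PPARs) are nuclear receptors that bind fatty acids and their derivatives and switch on genes of lipid use. They act as heterodimers with a retinoid X receptor on a DNA element built from a pair of AGGTCA units with a single base between them, and coactivators such as PGC-1α raise their activity. In the kidney the proximal tubule draws much of its energy from fatty acid oxidation, which PPARα is known to drive. The account here follows 9 genes of this system in mouse kidney RNA, which are 9 of the 21935 genes in the count table. They are the receptors *Ppara*, *Ppard* and *Pparg*, the heterodimer partner *Rxra*, the coactivator gene *Ppargc1a* and the target genes *Angptl4*, *Pdk4*, *Plin2* and *Fabp1*. The genes were selected by name, with earlier results of these libraries in view, so their differences between groups are given as a description. Which of the 9 passed a p threshold is stated later beside the counts over all genes, and nothing is read from it. All 9 passed the filter on low counts, *Fabp1* through the groups in which it was high.

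The data comprised 9 kidney libraries of C57BL/6 mice labelled female, 3 in each of 3 groups. Con mice were wild type and received 0.5 ml of saline into the peritoneum at 4 weeks of age, PIL mice were wild type and received 0.5 ml of pristane, an oil used to bring on lupus-like disease in mice, and GKO mice carried the genotype GSDMD-/-, without gasdermin D, a pore-forming protein of inflammatory cell death. Kidneys were taken 31 weeks after injection. For Con and for GKO the labels enter no treatment, while the treatment protocol names saline for controls and the study describes its knockout mice in this experiment as given pristane. The study calls the wild type mice littermates in one place and purchased in another, and no source used here says if the libraries of a group are different mice, so errors measure the spread between libraries. Groups were compared to learn what pristane did to the kidney and what the loss of *Gsdmd* altered. If the GKO mice were not given pristane, GKO against PIL differs in treatment as well as genotype, and these cannot be told apart.

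Library totals ran from 13311063 to 16299328 counts. The 4 Y-linked genes examined summed to 136 to 208 CPM (CPM are counts adjusted for library size by TMM) in the Con libraries and had 0 counts in the other 6, although all mice are labelled female. Of 9 genes known for male-biased kidney expression, all were lower in every PIL and every GKO library than in every Con library. Over all genes 11.7% were so in PIL and 11.5% in GKO. Of 4 genes known for female-biased expression, 2 were higher without overlap in PIL and 3 in GKO, where 13.4% and 13.3% of all genes were. Their sum was 154 CPM in PIL-1, below the 361 to 459 CPM of Con. Every difference from Con below therefore cannot be told apart from this difference in Y-linked reads, which GKO against PIL does not contain. *Gsdmd* stood at 4.40 to 11.6 CPM in Con, 6.56 to 20.1 in PIL and 1.61 to 2.06 in GKO. Kidney identity was present in all libraries, with none of 10 proximal tubule markers at 0 in any. The PIL libraries differed among themselves. PIL-1 had the lowest proximal tubule sum (8060 CPM) and the highest macrophage sum (1684 CPM over 9 markers), while among the PIL libraries PIL-3 had the highest and the lowest of these (15623 and 374 CPM). These libraries are whole kidney, so fewer cells of a type and less RNA per cell cannot be told apart.

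Promoter sequence was taken from RefSeq (GRCm38.p6) as 250 bases before to 50 bases after each annotated start, and 11 such promoters matched 8 of the 9 genes. *Angptl4* had no entry. Each was searched on both strands for the direct repeat AGGTCANAGGTCA, of which the N may be any base. No promoter of the 9 genes held an exact copy. The closest was in *Fabp1*, with 1 mismatch over the 12 fixed positions, on the minus strand 67 to 55 bases before the RefSeq start. In the GENCODE annotation used below for gene positions, *Fabp1* starts further upstream, at 71199827. The match (chr6:71199812-71199824) lies before both starts. The whole *Fabp1* promoter (chr6:71199629-71199928, plus strand) is shown because this gene had the largest difference between groups of the 9. Capitals mark the 13 bases of the match.
Fabp1: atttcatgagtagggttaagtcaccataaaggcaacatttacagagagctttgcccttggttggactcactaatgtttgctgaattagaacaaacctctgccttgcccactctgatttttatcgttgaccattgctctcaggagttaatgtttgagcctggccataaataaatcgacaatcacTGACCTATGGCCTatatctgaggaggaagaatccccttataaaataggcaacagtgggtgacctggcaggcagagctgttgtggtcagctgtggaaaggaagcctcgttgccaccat
The next closest windows each had 2 mismatches, in *Plin2* (chr4:86670272-86670284, gene on the minus strand, 225 to 213 bases before the start) and at the second *Rxra* start (chr2:27709217-27709229, plus strand, 75 to 63 bases before the start). They are shown with the *Fabp1* window, each with 14 bases on either side and in the direction of its gene.
Fabp1: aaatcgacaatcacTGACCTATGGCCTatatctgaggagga
Plin2: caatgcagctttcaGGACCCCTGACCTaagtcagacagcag
Rxra: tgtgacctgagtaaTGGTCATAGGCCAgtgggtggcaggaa
In *Fabp1* and *Plin2* the repeat reads on the opposite strand to the gene, and in *Rxra* on the same strand. A window with at most 1 mismatch was present in 0.554% of all 32851 mouse promoters of this length and one with at most 2 in 3.86%, against 1 and 3 of the 11 promoters here. A single AGGTCA unit on either strand, which the longer motif contains, was present in 5 of the 11 and in 16.3% of all promoters. Promoters of *Ppara*, *Ppard*, *Pparg*, *Ppargc1a* and *Pdk4* had at least 4 mismatches at their closest window. Such matches describe letters in a short window and were not tested for binding.

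*Ppara*, the receptor best known for driving fatty acid oxidation in liver and proximal tubule, had its highest mean in GKO kidneys, where its libraries overlapped Con. It lies on chromosome 15 from 85734983 to 85802819 (GRCm38, plus strand). Its level was 25.4, 26.2 and 38.0 CPM in Con-1, Con-2 and Con-3, 7.35, 17.4 and 30.6 in PIL-1, PIL-2 and PIL-3, and 43.3, 47.2 and 32.0 in GKO-1, GKO-2 and GKO-3. All GKO libraries lay above all PIL libraries, though GKO-3 exceeded PIL-3 by little, and PIL overlapped Con. The mean was 29.9 ± 7.05 CPM in Con, 18.5 ± 11.7 in PIL and 40.8 ± 7.89 in GKO (SD, n = 3). On the log2 scale the difference was -0.70 (standard error 0.42) for PIL against Con, 1.15 (0.42) for GKO against PIL and 0.45 (0.41) for GKO against Con. Within PIL, the library with the lowest *Ppara* level, PIL-1, was also the one with the lowest proximal tubule and highest macrophage sum. The part of these in the *Ppara* difference was not tested.

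*Ppard*, the broadly expressed receptor, stood apart in GKO kidneys. On chromosome 17 from 28232700 to 28301474 (plus strand), it had 60.3, 30.0 and 32.2 CPM in the Con libraries, 30.8, 33.7 and 38.7 in PIL and 88.1, 127 and 124 in GKO, in the order of replicates 1 to 3. Every GKO library exceeded every library of the other groups, and Con and PIL overlapped. The means were 40.8 ± 16.9, 34.4 ± 3.99 and 113 ± 21.7 CPM (SD, n = 3). The log2 difference was 1.72 (standard error 0.27) for GKO against PIL, 1.47 (0.27) for GKO against Con and -0.25 (0.26) for PIL against Con. Without Con-1 the last of these was 0.14. Unlike *Ppara*, *Ppard* varied little within PIL, by a factor of 1.26 between its lowest and highest library, against 4.17 for *Ppara*.

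*Pparg*, the receptor of fat cells that is also expressed in macrophages and parts of the collecting duct, had the lowest level of the receptors. On chromosome 6 from 115360951 to 115490399 (plus strand), its values were 2.50, 2.02 and 7.59 CPM in Con, 5.72, 5.97 and 3.08 in PIL and 2.47, 2.58 and 2.54 in GKO. All GKO libraries were below all PIL libraries (log2 difference -0.96, standard error 0.49), and Con spanned both because of Con-3. For PIL against Con the log2 difference was 0.29 (0.48), and without Con-3 it was 1.12. GKO against Con was -0.68 (0.49), and without Con-3 it was 0.16. Con-3 was also the library with the highest sum of 9 fat markers, 262 CPM against 41.0 to 108 in the other 8, and the only one with none of these markers at 0. In PIL-1 and PIL-2, where *Pparg* was also high, the fat sum was 67.2 and 83.2 CPM with 3 and 5 of the 9 markers at 0, and the macrophage sum was 1684 and 1125 CPM against 374 in PIL-3. The part of fat or macrophages in the *Pparg* values was not tested.

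**Figure D1:**
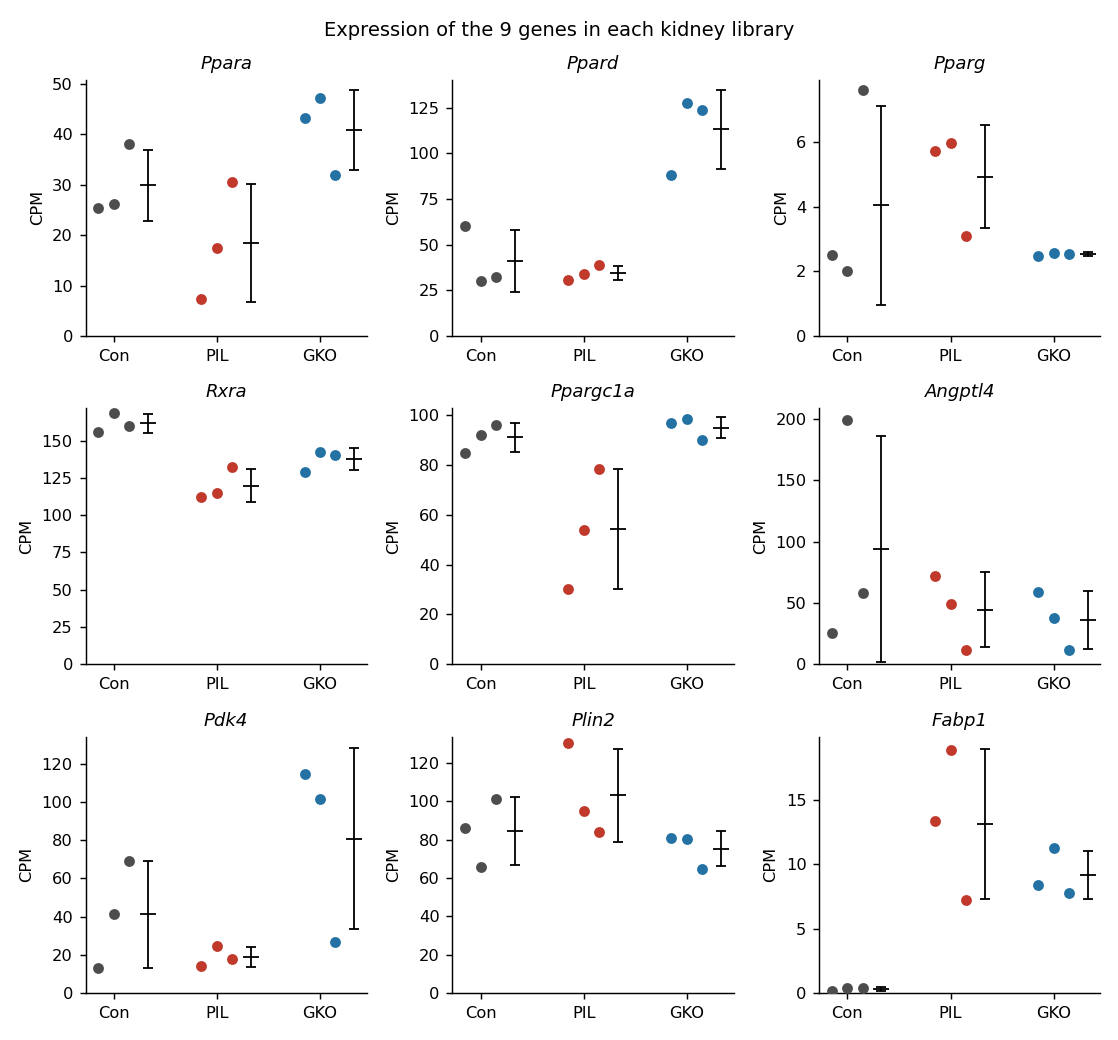
Each panel plots the TMM-scaled level of 1 gene in CPM (linear axis from 0) for the Con, PIL and GKO groups, with 1 point per library in the order of replicates 1 to 3 and, to the right, the mean with its SD (n = 3; for Angptl4 in Con the SD nearly reaches 0). Ppard in GKO (88.1 to 127 CPM) lies above all other libraries, Fabp1 in Con (0.147 to 0.407 CPM) lies near 0, and Angptl4 overlaps between all groups.

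Levels of different genes can be compared only per length, for which the deposited FPKM (fragments scaled to gene length and library total) was used. Summed over the 3 receptors, FPKM ran from 11.0 to 16.1 in Con, 8.70 to 14.2 in PIL and 23.8 to 28.7 in GKO, so the GKO libraries held the highest receptor totals. The composition varied between libraries. *Ppara* made up 42.8% to 59.4% of the receptor FPKM in Con, 24.1% to 56.3% in PIL and 32.5% to 47.3% in GKO, which overlap. *Ppard* made up 25.6% to 51.8% in Con, 36.3% to 51.5% in PIL and 49.2% to 64.2% in GKO. *Pparg* made up 5.46% to 15.3% in Con, 7.37% to 24.4% in PIL and 2.90% to 3.51% in GKO, where every library was below every library of the other groups. The lowest receptor total and the highest *Pparg* share were both found in PIL-1.

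**Figure D2:**
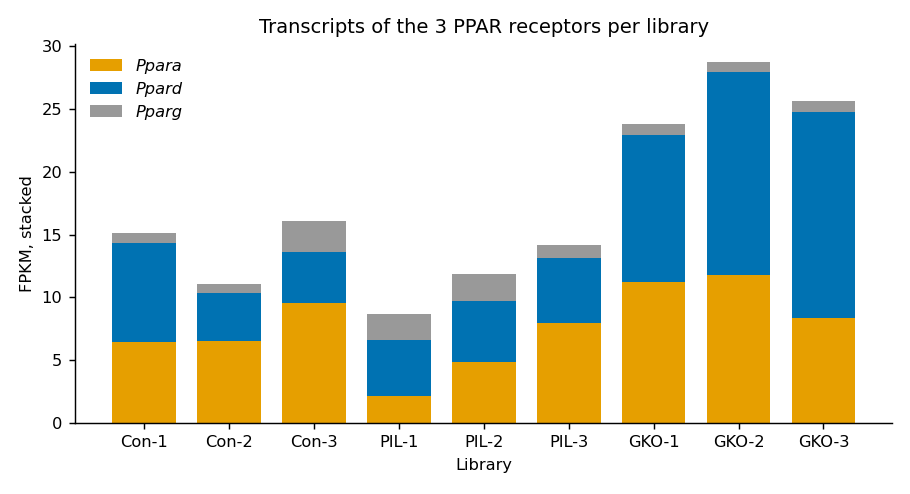
Stacked bars show FPKM of Ppara, Ppard and Pparg in each of the 9 libraries (linear axis from 0). The GKO bars reach 23.8 to 28.7 FPKM against at most 16.1 in the other libraries, and PIL-1 is the lowest at 8.70.

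*Rxra* encodes the retinoid X receptor α, the DNA-binding partner of all PPARs, and had the steadiest level of the 9 genes. On chromosome 2 from 27676440 to 27762957 (plus strand), it stood at 156, 169 and 160 CPM in Con, 112, 115 and 132 in PIL and 129, 143 and 141 in GKO. Every Con library was above every PIL and GKO library, and PIL and GKO overlapped. The log2 difference was -0.43 (standard error 0.11) for PIL against Con, -0.23 (0.11) for GKO against Con and 0.20 (0.11) for GKO against PIL. In FPKM, *Rxra* (mean 24.7 in Con, 20.0 in PIL and 21.4 in GKO) exceeded the mean of each receptor in every group.

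*Ppargc1a* encodes PGC-1α, a coactivator of PPARs and of mitochondrial biogenesis. Located on chromosome 5 from 51454250 to 51567726 (minus strand), it had 84.8, 91.8 and 95.9 CPM in Con, 30.3, 53.6 and 78.3 in PIL and 96.5, 98.1 and 90.0 in GKO. All PIL libraries were below all Con and all GKO libraries, which overlapped each other. The log2 difference was -0.75 (standard error 0.27) for PIL against Con, 0.81 (0.27) for GKO against PIL and 0.06 (0.27) for GKO against Con. Con and GKO spread by a factor of 1.13 and 1.09 between their lowest and highest libraries, and PIL by 2.59. As with *Ppara*, PIL-1 was lowest and PIL-3 highest. Mitochondrially encoded transcripts, which are made in the organelle whose biogenesis PGC-1α promotes, took 7.22%, 9.71% and 13.3% of the counts in PIL-1, PIL-2 and PIL-3, against 10.8% to 12.8% in Con and 12.4% to 13.4% in GKO. PIL-3 had a higher share than every Con library and a lower *Ppargc1a* level than every Con library. The relation of these shares to *Ppargc1a* was not tested.

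The target genes did not share a single pattern. *Angptl4*, a secreted inhibitor of lipoprotein lipase that PPARs, fasting and glucocorticoids induce, lies on chromosome 17 from 33773750 to 33781830 (minus strand). It varied widely within groups, with 25.7, 199 and 57.9 CPM in Con, 72.4, 49.5 and 12.0 in PIL and 59.2, 37.9 and 12.0 in GKO. All groups overlapped, and the highest Con library was 7.74 times the lowest. The log2 difference of -1.07 (standard error 0.84) for PIL against Con became 0.09 without Con-2, and that of -1.37 (0.85) for GKO against Con became -0.20. GKO against PIL was -0.30 (0.84), and turned to 0.23 without PIL-1 and to 0.11 without GKO-3. Con-2 also had the highest sum of 7 glucocorticoid-responsive genes, 1391 CPM against 694 to 1124 in the other 8 libraries. That sum was 694 CPM in PIL-3 and 939 in GKO-3, the libraries with the lowest *Angptl4*. It was also low in PIL-1 (730 CPM), which had the highest *Angptl4* in PIL. GKO-2 had a higher sum than GKO-1 (1072 and 1020 CPM) and less *Angptl4*. The largest part of this sum came from *Errfi1*, with mean levels of 540 CPM in Con, 385 in PIL and 654 in GKO. Of the 7 genes 6 were tested, and in GKO against PIL 2 had positive and 4 negative values. The part of this sum in the *Angptl4* values was not tested.

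*Pdk4* encodes a kinase that switches off pyruvate dehydrogenase and so spares glucose when fatty acids are burned. On chromosome 6 from 5483351 to 5496309 (minus strand), it stood at 13.2, 41.1 and 69.2 CPM in Con, 14.2, 24.5 and 18.0 in PIL and 115, 102 and 26.4 in GKO. All GKO libraries were above all PIL libraries, GKO-1 and GKO-2 widely and GKO-3 narrowly. The log2 difference was 2.10 (standard error 0.63) for GKO against PIL, -1.13 (0.62) for PIL against Con and 0.97 (0.61) for GKO against Con. Con overlapped both other groups. Without Con-3 the PIL against Con value was -0.53, and limma-voom with sample quality weights gave 0.29. GKO-3 was the lowest GKO library for *Ppara*, *Ppargc1a*, *Angptl4*, *Pdk4*, *Plin2* and *Fabp1*, but not for *Ppard*, *Pparg* or *Rxra*.

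*Plin2*, which coats lipid droplets and follows their amount in many cells, lies on chromosome 4 from 86648386 to 86670060 (minus strand). Its values were 86.4, 65.8 and 101 CPM in Con, 131, 94.9 and 84.3 in PIL and 81.1, 80.2 and 64.8 in GKO. All GKO libraries were below all PIL libraries, by a log2 difference of -0.45 (standard error 0.20), and Con overlapped both. In PIL its order was the reverse of that of *Ppara* and *Ppargc1a*, with PIL-1 highest and PIL-3 lowest. The macrophage sum had the same order as *Plin2* in PIL, and its part was not tested.

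*Fabp1*, the liver-type fatty acid-binding protein that carries fatty acids inside cells, showed the largest difference from Con of the 9 genes. On chromosome 6 from 71199827 to 71205023 (plus strand), it had 0.147, 0.373 and 0.407 CPM in Con, 13.3, 18.9 and 7.22 in PIL and 8.37, 11.3 and 7.76 in GKO. The Con values rest on 2, 5 and 6 counts. Summed over libraries, the ratio to Con was 43.6 in PIL (95% exact interval 25.3 to 82.3) and 29.1 in GKO (16.8 to 55.1), intervals that cover counting error only. Both groups were wholly above Con and overlapped each other. The fitted log2 difference was 5.37 (standard error 0.48) for PIL against Con, 4.84 (0.48) for GKO against Con and -0.53 (0.34) for GKO against PIL. In FPKM, *Fabp1* went from the lowest of the 9 genes in Con (mean 0.537) to a mean of 25.3 in PIL and 16.2 in GKO, above the mean of each receptor. The 8 hepatocyte markers summed to 102 to 274 CPM in Con, 85.7 to 568 in PIL and 92.6 to 110 in GKO. Most of that sum came from *Ttr*, with mean levels of 160 CPM in Con, 261 in PIL and 54.0 in GKO (adjusted p = 0.304 from edgeR for GKO against Con). Of the 8 markers 5 were tested, and against Con edgeR called 2 higher in PIL and 1 in GKO, and none lower. Of all genes 4.48% were called higher and 3.14% lower in PIL, and 1.55% and 1.46% in GKO. *Alb*, the serum albumin gene, rose from 6.27 CPM in Con to 18.5 in PIL (adjusted p = 0.00822 from edgeR) and 33.7 in GKO (adjusted p = 0.00121). *Fgb*, a fibrinogen chain gene, stood at mean levels of 2.13 CPM in Con, 34.7 in PIL (adjusted p = 0.0218 from edgeR) and 10.1 in GKO (0.212). Its PIL call ended without Con-1, Con-2 or Con-3 (0.0954, 0.0532 and 0.0668) and in a fit of the Con and PIL libraries alone (0.0863). Without PIL-1 its log2 difference for PIL against Con went from 4.02 to 2.35 (adjusted p = 0.00266 from edgeR). Its GKO against Con value passed only without PIL-1 (0.00132 from edgeR), on the Con and GKO libraries alone (0.00248) and with limma-voom (0.0496). *Apoa2*, a lipoprotein gene, stood at 2.02, 3.23 and 3.95 CPM in Con, PIL and GKO (adjusted p = 0.182 and 0.153 from edgeR against Con). *Alb*, *Fgb* and *Apoa2* were each higher in every PIL and GKO library than in every Con library. *Ttr* was lower in every GKO library than in every Con library and overlapped Con in PIL, and *Apoa1* overlapped Con in both groups. Over all genes, 13.4% were higher without overlap in PIL against Con. In GKO against Con 13.3% were higher and 11.5% lower. *Ahsg* and *Cps1* were at or near 0 in all groups. The part of hepatocyte genes in the *Fabp1* values was not tested. The Con libraries are also those with Y-linked reads, so *Fabp1* cannot be told apart from that difference.

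**Figure D3:**
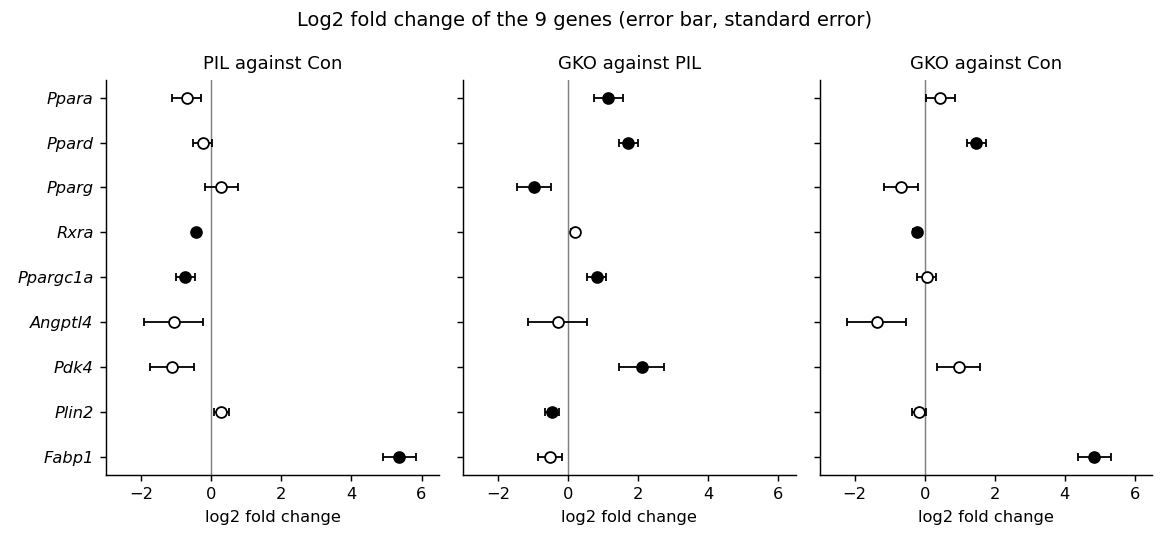
Points give the log2 fold change of each of the 9 genes in the 3 comparisons and bars its standard error from the edgeR fit. Filled points mark genes whose libraries did not overlap between the groups compared. Fabp1 lies near 5 in both comparisons with Con (5.37 and 4.84), and 6 of the 9 points are filled for GKO against PIL.

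Counts over the 9 genes were set beside those over all 14069 genes tested, and nothing is read from them because these contrasts were known when the genes were chosen. For PIL against Con, edgeR at an adjusted p under 0.05 called *Fabp1* higher and *Rxra* lower, where 4.48% of all genes were called higher and 3.14% lower. For GKO against PIL it called 0 of the 9 and 0% of all genes in the higher and 0% in the lower direction. At an unadjusted p under 0.05, 4 of the 9 and 2942 of all genes passed, while DESeq2 called 1 of the 9 (*Ppard*) and 878 of all, and limma-voom with sample quality weights 7 and 6443. For GKO against Con edgeR called *Ppard* and *Fabp1* higher, where 1.55% of all genes were called higher and 1.46% lower. Groups did not overlap for 1 higher and 2 lower of the 9 genes in PIL against Con, for 4 higher and 2 lower in GKO against PIL and for 2 higher and 1 lower in GKO against Con. Over all genes these shares were 13.4% higher and 11.7% lower, 13.8% and 14.1%, and 13.3% and 11.5%. The median log2 difference of the 9 was -0.43, 0.20 and 0.06 in the 3 comparisons, against 0.012, -0.00066 and -0.011 over all genes. The 3 comparisons share groups, so their values are not independent. The *Rxra* call held only when PIL-3 was the library left out, and the *Ppard* call ended without Con-2, Con-3, GKO-2 or GKO-3. Without PIL-3, edgeR called 4 of the 9 for PIL against Con (*Ppara*, *Rxra*, *Ppargc1a* and *Fabp1*) and 3 for GKO against PIL (*Ppara*, *Ppard* and *Ppargc1a*), while it then called 3684 and 3204 of all genes.

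**Figure D4:**
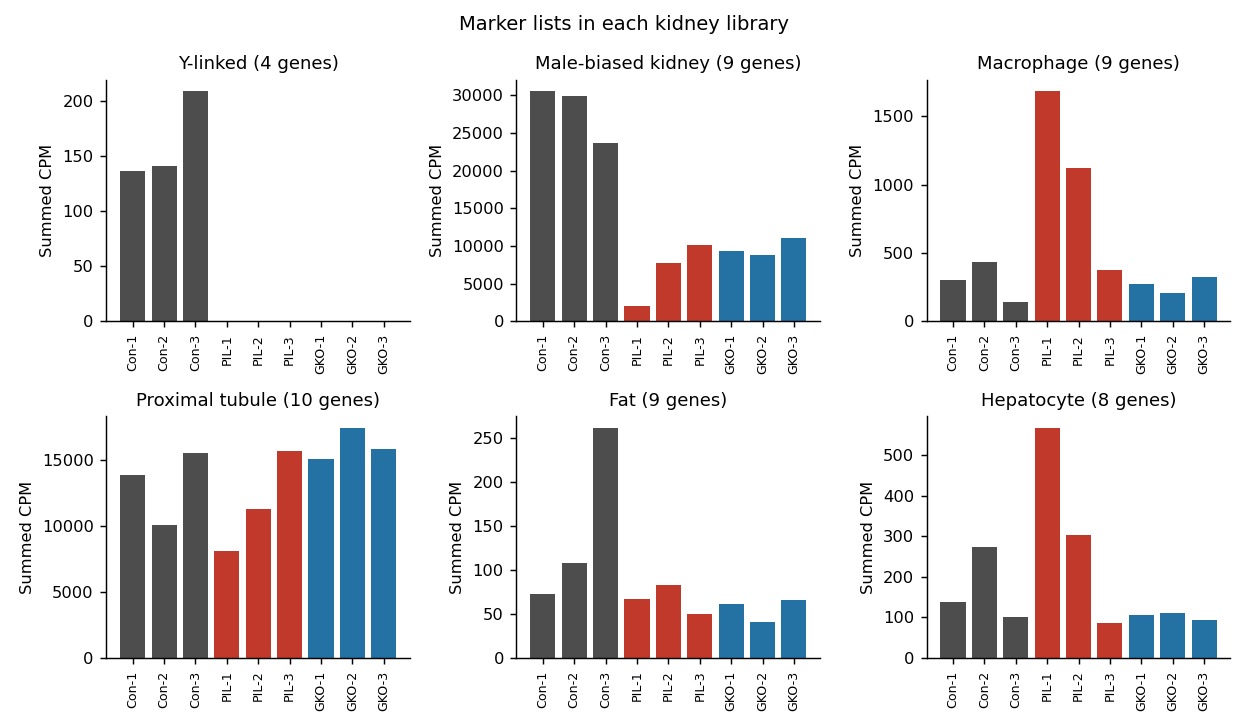
Bars show the summed CPM of 6 marker lists in each library (linear axes from 0). The Y-linked sum is 136 to 208 CPM in Con and 0 elsewhere, and the macrophage sum is highest in PIL-1 (1684 CPM) and PIL-2 (1125 CPM). The fat sum is highest in Con-3 (262 CPM), and by group mean most of it is Fabp4, a gene of fat and macrophages.

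The wider pathway was followed with 64 further genes, of which 60 passed the filter. In PIL against Con kidneys 1 of them rose and 6 fell, where 4.48% of all genes were called higher and 3.14% lower. The median log2 fold change was -0.15 against 0.012 over all genes, and 22 values were positive and 38 negative. Of the 14 genes tested for lipid uptake, storage and lipolysis 3 fell and none rose, with 7 positive and 7 negative values. *Cd36*, a fatty acid translocase, fell from a mean of 475 to 124 CPM (log2 fold change -1.94, standard error 0.35, adjusted p = 0.0141 from edgeR). *Lpl*, the lipoprotein lipase that *Angptl4* inhibits, fell from 1082 to 412 CPM (-1.39, 0.34, adjusted p = 0.0397), and *Fabp3*, a fatty acid-binding protein of muscle and kidney, from 95.4 to 55.0 CPM (-0.79, 0.20, adjusted p = 0.0459). Among oxidation genes *Acadl*, the mitochondrial long-chain acyl-CoA dehydrogenase, fell from 359 to 261 CPM (-0.46, 0.12, adjusted p = 0.0469 from edgeR). *Lpin1*, a phosphatidate phosphatase that also acts as a coactivator of PPARα, fell from 84.3 to 40.5 CPM (-1.06, 0.19, adjusted p = 0.0138). The gene that rose was *Acot3*, a peroxisomal acyl-CoA thioesterase, from 8.70 to 34.6 CPM (1.98, 0.46, adjusted p = 0.0356), and its reads may be shared with near-identical *Acot* genes. Without Con-1 the calls of *Lpin1* (adjusted p = 0.0599 from edgeR) and *Cd36* (0.0605) ended. Those of *Acadl*, *Fabp3*, *Lpl* and *Acot3* each ended without Con-1, Con-2 or PIL-2 or any 1 of the GKO libraries, with adjusted p from edgeR up to 0.151, 0.153, 0.136 and 0.133 across the alternatives. *Acadl*, *Fabp3* and *Lpl* also lost theirs without Con-3, and *Acadl* and *Fabp3* without PIL-1.

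In GKO against PIL kidneys edgeR called 0 of the 60 genes, with 15 at an unadjusted p under 0.05, 4 called by DESeq2 (of 59) and 30 by limma-voom with sample quality weights. Over all genes these were 2942 of 14069 at an unadjusted p under 0.05, 6.24% of 14062 called by DESeq2 and 45.8% of 14069 by limma-voom. Of the 60 values 45 were positive and 15 negative, with a median of 0.25 against -0.00066 over all genes. The lowest p among coregulators were those of *Lpin1* (log2 fold change 0.70, adjusted p = 0.134 from edgeR) and of the corepressor *Nrip1* (0.59, adjusted p = 0.139). Among mitochondrial genes they belonged to the uncoupling protein gene *Ucp2* (-1.13, adjusted p = 0.134) and to *Hadhb*, a subunit of the trifunctional β-oxidation enzyme (0.51, adjusted p = 0.191). Among peroxisomal genes *Acaa1b*, a thiolase, had a value of 0.54 (adjusted p = 0.150 from edgeR), and lipid handling genes were led by the lipid droplet gene *Plin4* (-1.59, adjusted p = 0.204) and the fatty acid transporter and acyl-CoA synthetase *Slc27a2* (0.64, adjusted p = 0.212). Without PIL-3, 8 of the list were called higher and 2 lower, of 62 then tested, where 22.3% of all genes were called. Proximal tubule markers, whose cells hold much of this pathway, had positive values for 10 of 10 genes in the same comparison, and macrophage markers negative values for 9 of 9. Their part in the list's values was not tested.

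In GKO against Con kidneys 3 of the 60 rose and 2 fell, where 1.55% of all genes were called higher and 1.46% lower, with a median of -0.014 against -0.011 over all genes. *Slc27a1*, a fatty acid transporter, rose from 69.6 to 110 CPM (log2 fold change 0.65, standard error 0.12, adjusted p = 0.0203 from edgeR), *Acaa1b* from 213 to 378 CPM (0.83, 0.16, adjusted p = 0.0253) and *Acot3* from 8.70 to 39.2 CPM (2.17, 0.47, adjusted p = 0.0417). Reads of *Acaa1b* may be shared with its near copy *Acaa1a*. *Cd36* fell to 156 CPM (-1.61, 0.34, adjusted p = 0.0401). None of these calls held in every fit that left out 1 library. That of *Slc27a1* ended without Con-1, Con-3, GKO-1 or GKO-2 (adjusted p from edgeR up to 0.113). Those of *Acaa1b* and *Acot3* ended without Con-1, Con-2, PIL-2 or any 1 of the GKO libraries (up to 0.134 and 0.185), and that of *Cd36* without any 1 of the Con or GKO libraries (up to 0.185). Genes with the lowest p in the lists without a call were *Nrip1* (0.68, adjusted p = 0.0604) and the retinoid X receptor gene *Rxrg* (1.57, adjusted p = 0.284) among coregulators, and *Acsl1*, an acyl-CoA synthetase (1.42, adjusted p = 0.0687), among mitochondrial genes.

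**Figure D5:**
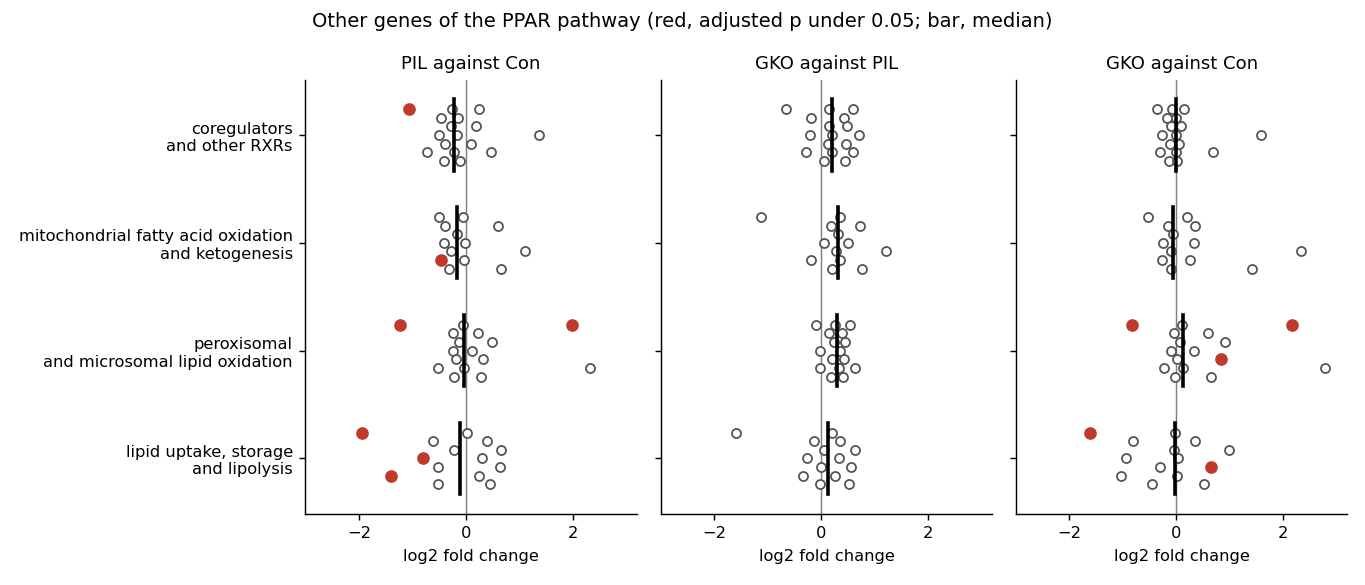
Points are the log2 fold changes of the 60 further pathway genes tested, in 4 lists by role and 3 comparisons, red where the adjusted p from edgeR was under 0.05, with a bar at each list's median. In PIL against Con 6 red points lie below 0 and 1 above, in GKO against PIL none is red, and in GKO against Con 3 lie above 0 and 2 below.

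Relatives of the target genes were read in the same fit. Among other angiopoietin-like genes *Angptl8*, a regulator of lipoprotein lipase, rose from 1.08 to 5.80 CPM in PIL (log2 fold change 2.42, standard error 0.33, adjusted p = 0.00558 from edgeR) and stood at 5.43 in GKO (2.32 against Con, adjusted p = 0.00803, and 0.0547 without Con-1). *Angptl7* fell from 12.9 to 4.62 CPM in PIL (-1.47, adjusted p = 0.0266) and stood at 2.22 in GKO (-2.53 against Con, adjusted p = 0.00519). Its call for PIL ended without PIL-2 (adjusted p = 0.0962) or any 1 of the GKO libraries (0.0502 to 0.0525). *Angptl7* (-1.06, adjusted p = 0.163) and *Angptl6* (0.69, adjusted p = 0.325) had the lowest p for GKO against PIL, where none was called, nor any of all genes. Like *Fabp1*, *Angptl8* was high in both groups without Y-linked reads.

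Of the 6 other genes that set pyruvate dehydrogenase phosphorylation, *Pdk3* fell in PIL against Con (log2 fold change -0.66, standard error 0.16, adjusted p = 0.0392 from edgeR) and none rose. Of all genes 4.48% were called higher and 3.14% lower in that comparison. The *Pdk3* call ended in every fit that left out 1 library except the one without PIL-3, with an adjusted p of up to 0.133. In GKO against PIL all 6 values were positive with a median of 0.53. None was called, where 0% of all genes were. The lowest p were those of the kinase gene *Pdk2* (0.37, adjusted p = 0.202) and the phosphatase gene *Pdp2* (0.69, adjusted p = 0.212). In GKO against Con *Pdk3* (-0.60, adjusted p = 0.0940) and *Pdk2* (0.20, adjusted p = 0.598) came first. None was called, where 1.55% of all genes were called higher and 1.46% lower. Of 10 other fatty acid-binding and perilipin genes 7 were tested, of which only *Fabp3* was called, in PIL against Con. The shares of all genes called in each comparison are those just given. For GKO against PIL the 7 values were all negative, led by *Fabp5*, the epidermal type (-0.66, adjusted p = 0.191), and *Plin4*, and for GKO against Con *Fabp3* (-0.81, adjusted p = 0.0718) and the fat and macrophage gene *Fabp4* (-0.99, adjusted p = 0.183) came first.

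For the 3 of the 9 genes that varied most over the libraries, the genes with the most similar pattern were found by the root mean square difference of centred log2 CPM over the 9 libraries. For *Fabp1* (SD 2.37 on the log2 scale) they included *Abcc3*, an organic anion exporter (0.87), and *Gsta1*, a glutathione transferase (0.96) that shares sequence with other *Gsta* genes. *Abcc3* stood at 2.94 to 5.01 CPM in Con, 34.1 to 128 in PIL and 63.3 to 140 in GKO. For *Pdk4* (SD 1.19) they were *Rnf125*, a ubiquitin ligase (0.57), *Olfr1392* (0.62) and *Klf11*, a transcription factor (0.63). *Klf11* stood at 9.78 to 18.4 CPM in Con, 6.70 to 14.3 in PIL and 22.6, 23.7 and 8.23 in GKO-1, GKO-2 and GKO-3, low in GKO-3 as *Pdk4* was. For *Angptl4* (SD 1.28) they were *S100a7a* (0.68), *Apod* (0.68) and *Cfap44* (0.69), all at most 2.92 CPM in any library, so this likeness rests on few counts. The same limit holds for *Gsta1* (at most 2.58 CPM), *Rnf125* (at most 3.15) and *Olfr1392* (at most 1.06). The nearest genes were picked for likeness among 14069, and no test is given.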

How the data were processed

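The authors extracted RNA with TRIzol, read paired ends on an Illumina Novaseq6000, aligned with Hisat2 (mm10) and counted reads with HTSeq (TopHat2 is also named; versions are not given in the sources used here). The deposited read counts are raw counts per gene. The deposited FPKM are these counts divided by the authors by gene length and library total, and FPKM recomputed from the counts were 1.00000367 to 1.00000571 times the deposited values. Genes without enough counts were removed with edgeR's filterByExpr, which left 14069 of 21935. Libraries were scaled by TMM, all 9 entered a quasi-likelihood fit with 6 residual degrees of freedom, and p values were adjusted by Benjamini-Hochberg over all genes tested, with a threshold of 0.05. Log2 CPM used a prior count of 2. The standard error is the log2 fold change divided by the root of F. R 4.3.3, edgeR 4.0.16, limma 3.58.1 and DESeq2 1.42.0 were used, and the fit was tested on simulated data. Library totals of 13311063 to 16299328 make 3 counts about 0.2 CPM, the precision for low genes.

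The genes, the gene lists and the tests were chosen with earlier results of these data known. Named are all 9 genes, of each further list up to 4 called genes with the lowest p per comparison (or up to 2 where none was called), summed levels of marker lists, and the 3 nearest genes of the 3 most variable of the 9. Some genes that this rule names are not reported here. Other genes named were chosen after their values were seen. Coordinates are GENCODE M21 (GRCm38), which has the same start and end as the table for all 9 genes, and none shares exon bases with another annotated gene. Alternatives were RLE scaling, no filter, at least 10 counts in every library, limma-voom with sample quality weights, DESeq2, a fit of the 6 libraries compared, replicate number as a block, and each library left out in turn. Replicate pairs differed by 8.10 to 148 times the counting variance, so no library was a copy.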

Additional observations from a re-analysis of the deposited data

How the results depend on the processing

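For the 9 genes, 2 calls in PIL against Con became 1 at 10 counts in every library (where *Fabp1* was not tested), 1 on only the 6 libraries of the 2 groups, 1 with a replicate block, 3 with DESeq2, 5 with limma-voom and 1 to 4 without 1 library; 0 calls in GKO against PIL became 1 with DESeq2, 7 with limma-voom and 0 to 3 without 1 library; and 2 in GKO against Con became 1 at 10 counts in every library and 1 to 2 without 1 library. For the further pathway genes, 7 calls in PIL against Con became 12 with DESeq2, 34 with limma-voom, 1 on the 6 libraries and 1 to 17 without 1 library. Their 0 calls in GKO against PIL became 4 with DESeq2, 30 with limma-voom and 0 to 10 without 1 library, and their 5 in GKO against Con became 11, 20, 10 on the 6 libraries and 0 to 10 without 1 library. The cause was not tested. Deviations of same-numbered libraries correlated between -0.14 and 0.29, and those of differently numbered libraries between -0.34 and 0.25. With 3 libraries a group these values cannot decide if replicate numbers pair libraries. With the replicate block the further genes called were 5, 0 and 5. Signs that turned for the 9 genes, besides those given above, were *Pparg* in PIL against Con without Con-2 (-0.04) and *Angptl4* in PIL against Con with limma-voom (0.29). Over all genes, calls in PIL against Con were 1072 with edgeR, 2285 with DESeq2, 6223 with limma-voom and 130 on the 6 libraries; in GKO against PIL 0, 878, 6443 and 1; and in GKO against Con 423, 909, 2201 and 766. With 13 *Fabp1* counts in all Con libraries, its ratio to Con is limited by depth.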

Other observations

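Of 14 genes of the circadian clock, which helps set the daily course of PPAR genes, 3 were higher and 3 lower in GKO than in PIL without overlap, where 13.8% and 14.1% of all genes were. In GKO against Con these were 2 and 4, where the shares were 13.3% and 11.5%. The following 3 were named after their values were seen. The activator *Arntl* stood at 14.4 to 26.3 CPM in Con, 16.2 to 20.2 in PIL and 35.9 to 38.5 in GKO. In the same order *Npas2* stood at 8.06 to 17.2, 6.70 to 7.91 and 23.5 to 28.9 CPM. The output gene *Dbp* stood at 7.99 to 30.4 CPM in Con, 15.9 to 18.1 in PIL and 2.54 to 4.62 in GKO. GKO libraries did not overlap either other group for any of these 3 genes. *Ppard* likewise separated GKO from both groups, while *Ppara* and *Pdk4* in GKO overlapped Con. Of the 14 clock genes tested, edgeR called 0 in GKO against PIL (6 at an unadjusted p under 0.05), where 0% of all genes were called and 2942 of 14069 passed at that p. In GKO against Con it called 2 higher and 1 lower, where 1.55% of all genes were called higher and 1.46% lower. The hour at which kidneys were taken is not stated in the sources used here, and its part in the levels of the 9 genes was not tested.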
